A study of Mus musculus with 6 samples.

Results

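Oligodendrocyte lineage and early myelin genes were examined in the cortex of mice at postnatal day 7. The 32 genes were chosen by symbol from the 24972 genes of the deposited table and grouped by the stage at which the lineage is known to use them, with 10 precursor genes, 5 genes of committed cells and 17 genes of myelinating cells. The wildtype group held 3 libraries of mice with both Zmiz1 alleles floxed (Zmiz1f/f), and the other group held 3 libraries of mice that also carried Emx1Cre (Zmiz1f/f;Emx1Cre), labelled Zmiz1-KO. The floxed alleles were thus shared by both groups and Cre was present in only 1, so Cre and the deletion cannot be told apart. Whether a library came from 1 animal, and the litters, are not given. Emx1Cre acts in the progenitors of the dorsal forebrain, and as background, cortical oligodendrocytes come in part from Emx1-expressing progenitors and in part from ventral progenitors outside that domain, so the lineage cells of a cortex with Emx1Cre are a mix of recombined and unrecombined cells.

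In the cortex, oligodendrocyte precursors divide under the control of PDGF, pass through a brief committed state as they leave the cell cycle, and then wrap axons in myelin. Olig1 and Olig2, bHLH transcription factors, Sox10 and Sox8, of the SoxE family, and Nkx2-2, a homeodomain factor, set up and maintain the lineage. Myelin at this age is only beginning to form in the mouse cortex, and its structural genes are far from their adult levels.

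The summed count of the targeted gene was not lower under the Zmiz1-KO label. Zmiz1 was at 7461 to 8119 normalized counts in wildtype and at 9660 to 9944 in the Zmiz1-KO-labelled libraries, a log2 change of 0.32 (SE, the standard error, 0.0402, limma adjusted p = 0.00125). The table holds 1 value per gene and none per exon, so it cannot check the deletion of part of the gene, and every direction given here is between libraries named by their labels. Emx1, the gene whose name the Cre driver carries, was at 688 to 818 in wildtype and 473 to 583 in the Zmiz1-KO-labelled libraries (log2 change -0.53, limma adjusted p = 0.0150). The values are counts that the authors normalized, and an estimated 15494888 to 17858395 reads were counted per library. Xist placed 1 female library in each group, wildtype replicate 3 and replicate 2 labelled Zmiz1-KO. Ttr, a choroid plexus gene, was at 98.8 in wildtype replicate 1 and at 89.8 in the second library labelled Zmiz1-KO (replicate 2), against 2874 to 7728 in the other 4 libraries, so each group also held 1 library low in Ttr. The neuronal gene Snap25 was at 15855 to 16461 normalized counts in all 6 libraries, as in whole cortex, although a protocol note in the labels speaks of progenitor cells. The lineage markers were present throughout: the precursor marker Pdgfra never fell below 3836 and Mbp, a major myelin protein, never below 3096.

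Of the 32 lineage genes, 31 reached the minimum for testing, and 1 of them, Olig1, had an adjusted p at or under 0.05 in the comparison over all 15800 tested genes by limma's moderated test on log2(value + 1), with Benjamini-Hochberg adjustment. Over all tested genes 0.411% were called, and 0.247% were called lower in the Zmiz1-KO-labelled libraries. The other 30 did not pass, with limma adjusted p values up to 0.991. In 11 genes the 3 values of one group lay wholly above those of the other, 8 of them lower and 3 higher in the Zmiz1-KO-labelled libraries, whereas 16.3% of all tested genes did so, 8.16% lower and 8.1% higher. At an unadjusted p under 0.05, 8 lineage genes were lower and 3 higher, against 5.84% and 5.13% of all tested genes. Estimates lay below 0 in 21 of the 31 genes, beside 50.1% of all tested genes, and the median log2 change was -0.09, beside a median of -0.00018 over all tested genes. The smallest p that exact two-sided permutation can give for 1 gene here, with 3 values per group, is 0.1. Groups without overlap always give this p, so it adds nothing for these 11 genes. In bulk RNA, fewer cells of a type and less RNA per cell cannot be told apart.

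**Figure D1:**
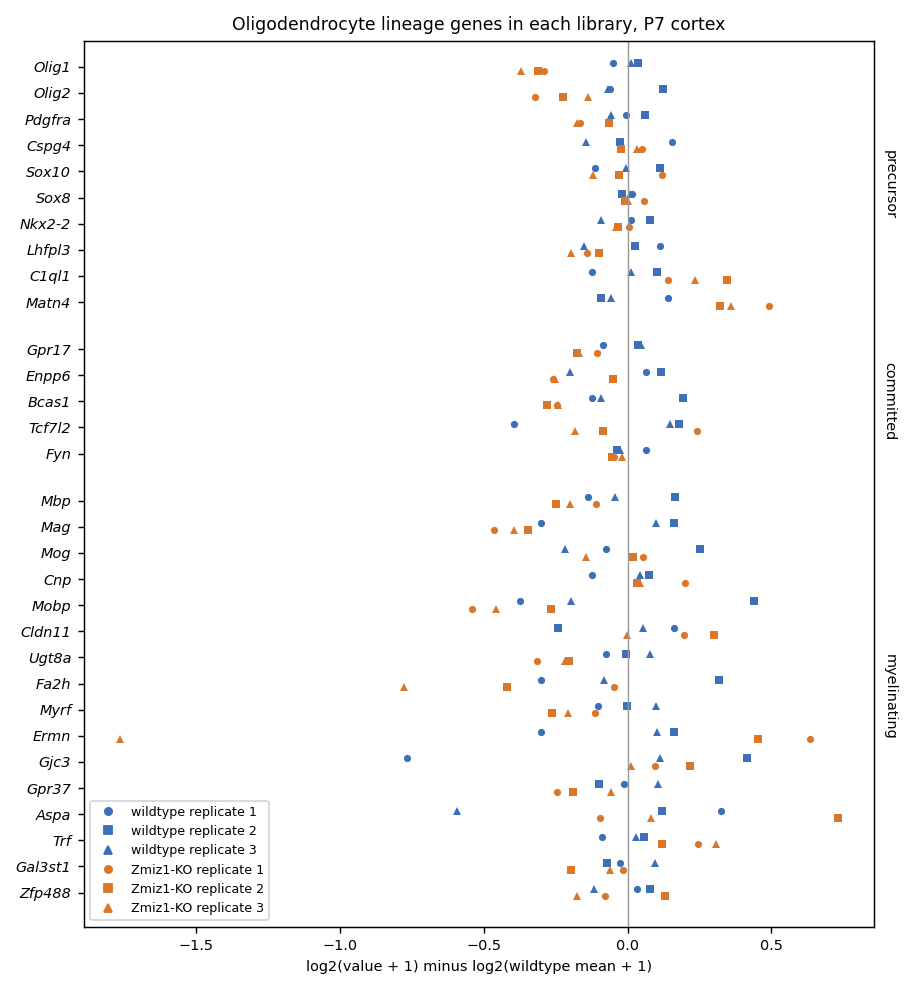
Level of the 31 tested lineage genes in each library, as log2(value + 1) minus the log2 of the wildtype mean + 1, with wildtype in blue, Zmiz1-KO in orange and 1 symbol per replicate. Olig1 showed all 3 Zmiz1-KO-labelled libraries well below wildtype, while Sox10 and Sox8 were intermixed and Ermn ranged widely.

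Olig1, which promotes the maturation of precursors, was at 4515, 4795 and 4708 normalized counts in wildtype and at 3817, 3760 and 3614 in the Zmiz1-KO-labelled libraries, in the order of replicates 1, 2 and 3, which holds for every gene here. The highest Zmiz1-KO-labelled library thus stayed below the lowest wildtype library, and replicates within a group varied by 3.07% and 2.81% (coefficient of variation). Olig1 was at 79.8% of wildtype (95% interval 75 to 85%), a log2 change of -0.32 (SE 0.0429) with a limma adjusted p of 0.00173, and ranked 7 by p among all tested genes. It passed the threshold under all 19 alternatives tried, with limma adjusted p values from 1.03e-05 to 0.0330 and log2 changes from -0.36 to -0.30. Olig1 is a gene of 1 exon on chromosome 16 of GRCm38 from 91269772 to 91271933, and Gm15966 overlaps it on the opposite strand. The library kit does not mark strand, and 3.98% of the 75-base stretches of Olig1 transcripts are found in other genes too.

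Olig2, which is needed for precursors to form, lies 41094 bases from Olig1 on the same strand, from 91225457 to 91228677. It was at 1139, 1297 and 1133 normalized counts in wildtype and at 952, 1019 and 1080 in the Zmiz1-KO-labelled libraries. The groups did not overlap, but the log2 change of -0.23 (SE 0.0696) did not pass, with a limma adjusted p of 0.218. The ratio of Olig1 to Olig2 was 3.96, 3.70 and 4.15 in wildtype and 4.01, 3.69 and 3.35 in the Zmiz1-KO-labelled libraries. These ratios overlapped, with a difference of -0.10 on the log2 scale (exact permutation p = 0.4, adjusted over the 3 ratios computed 0.6). This test cannot go below 0.1 here, so it cannot decide whether the changes of these neighbours differ. The ratio of Olig1 to Sox10 ran from 4.66 to 5.12 in wildtype and from 3.69 to 4.12 in the Zmiz1-KO-labelled libraries and did not overlap, a difference of -0.32 on the log2 scale (exact permutation p = 0.1, adjusted 0.3). It repeats the call of Olig1 and is not separate support. Of the 24 tested genes that lie within 500000 bases of the pair, themselves included, Olig1 was the 1 gene called.

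Pdgfra, the receptor through which PDGF keeps precursors dividing, was at 4322, 4524 and 4159 normalized counts in wildtype and at 3865, 4144 and 3836 in the Zmiz1-KO-labelled libraries. The groups were separated by a narrow gap, and the log2 change of -0.13 (SE 0.0464) had a limma adjusted p of 0.271. Meningeal fibroblasts also express Pdgfra, and their 6 markers had estimates above 0 in all 6 genes. Their summed level was 90.2 to 108% of the wildtype mean in wildtype and 115 to 129% in the Zmiz1-KO-labelled libraries, and Col1a2 was called higher. The part of these cells in the Pdgfra value was not tested.

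Matn4, an extracellular matrix protein of the matrilin family found in precursors, went the other way. It was at 409, 348 and 357 normalized counts in wildtype and at 522, 464 and 477 in the Zmiz1-KO-labelled libraries. All 3 of the latter lay above wildtype, at 131% (95% interval 114 to 151%), a log2 change of 0.39 (SE 0.0942) that did not pass, with a limma adjusted p of 0.0977. C1ql1, a secreted protein of the C1q family, was at 291, 341 and 320.1 in wildtype and at 349.7, 403 and 373 in the Zmiz1-KO-labelled libraries. It was again higher in each of the latter, with a log2 change of 0.24 (SE 0.102, limma adjusted p = 0.381). Gm26668 overlaps C1ql1 on the opposite strand, and Rbpjl overlaps Matn4.

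The other lineage factors were close in both groups. Sox10, which activates the myelin genes, was at 881, 1030 and 951 normalized counts in wildtype and at 1035, 935 and 877 in the Zmiz1-KO-labelled libraries, a log2 change of -0.01 with a 95% interval from -0.17 to 0.15. Sox8 had the tightest replicates of the precursor genes in wildtype, at 1347 to 1381 against 1357 to 1424, with an interval from -0.10 to 0.13. Nkx2-2, at 167 to 188 and 173 to 179, had an interval from -0.29 to 0.25. Cspg4, the NG2 proteoglycan, which pericytes also carry, was at 1333 to 1643 in wildtype and 1451 to 1528 in the Zmiz1-KO-labelled libraries (interval -0.12 to 0.17), while the summed pericyte markers were at 83.9 to 110% of the wildtype mean and 89.1 to 95.8%. Lhfpl3, a membrane protein of precursors, was at 1074 to 1291 and 1040 to 1113, with a log2 change of -0.14 (limma adjusted p = 0.473) that was -0.08 without wildtype replicate 1 and -0.22 without wildtype replicate 3. The median over the 10 precursor genes was -0.01, and they split into 6 with an estimate below 0 and 4 above. This median lay above 0, at 0.010, without wildtype replicate 2, and at 0.0031 without replicate 3 labelled Zmiz1-KO.

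Sequence upstream of the members was read from RefSeq (GRCm38.p6), in windows of 250 bases before to 50 after the start site. An entry was held for 23 of the 32 genes, and Olig1, Gpr17 and Bcas1 were among those without one. The promoters of Olig2, Pdgfra and Mag, whose groups were lower without overlap, are given beside that of Matn4, which was higher, so that the genes with opposite estimates can be compared. Capitals mark the letters CAGCTG (a form of the E-box that bHLH factors bind), ACAAAG (a core bound by Sox factors) or TATAAA (the TATA box), searched on both strands.
Olig2, chr16:91225300-91225599, plus strand: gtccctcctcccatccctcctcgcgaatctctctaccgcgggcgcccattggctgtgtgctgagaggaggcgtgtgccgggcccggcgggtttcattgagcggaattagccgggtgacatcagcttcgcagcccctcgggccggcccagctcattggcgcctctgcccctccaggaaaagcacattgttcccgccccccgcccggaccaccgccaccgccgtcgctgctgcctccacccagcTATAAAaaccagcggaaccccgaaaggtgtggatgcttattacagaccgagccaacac
Pdgfra, chr5:75152001-75152300, plus strand: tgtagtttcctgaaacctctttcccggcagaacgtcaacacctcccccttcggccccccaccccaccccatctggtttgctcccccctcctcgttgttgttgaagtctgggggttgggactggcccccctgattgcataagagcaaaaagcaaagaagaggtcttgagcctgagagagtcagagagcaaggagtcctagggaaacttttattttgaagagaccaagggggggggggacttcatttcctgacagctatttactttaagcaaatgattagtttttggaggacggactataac
Mag, chr7:30914814-30915113, minus strand: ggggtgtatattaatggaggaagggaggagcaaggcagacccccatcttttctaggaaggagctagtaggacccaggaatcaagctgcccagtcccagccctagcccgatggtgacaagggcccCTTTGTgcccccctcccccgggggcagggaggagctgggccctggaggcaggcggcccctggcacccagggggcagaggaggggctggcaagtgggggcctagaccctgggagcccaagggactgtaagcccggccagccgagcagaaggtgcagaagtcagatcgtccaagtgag
Matn4, chr2:164405111-164405410, minus strand: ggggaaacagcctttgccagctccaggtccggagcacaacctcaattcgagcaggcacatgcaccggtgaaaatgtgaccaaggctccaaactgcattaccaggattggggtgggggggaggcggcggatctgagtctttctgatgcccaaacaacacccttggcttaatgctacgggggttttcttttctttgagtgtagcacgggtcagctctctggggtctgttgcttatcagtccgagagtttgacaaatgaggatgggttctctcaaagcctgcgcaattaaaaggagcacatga

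The Olig2 window held 1 TATAAA and the Mag window 1 ACAAAG, read on the other strand, while the Pdgfra and Matn4 windows held none of the 3 motifs. The window of Ugt8a, also lower without overlap, held none of them either and is not printed. CAGCTG occurred in 17.2% of the 29 promoters listed for members and in 16.3% of all 32851 promoters of the table, ACAAAG in 20.7% and 18.7%, and TATAAA in 10.3% and 13.6%. These are matches of letters and say nothing of binding.

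The genes of committed cells had a median log2 change of -0.15, with 4 estimates below 0 and 1 above. None passed the threshold. At an unadjusted p under 0.05 (limma) 2 were lower and 0 higher, against 5.84% and 5.13% of all tested genes. Gpr17, a receptor that marks newly committed cells, was at 4210, 4575 and 4608 normalized counts in wildtype and at 4142, 3946 and 3973 in the Zmiz1-KO-labelled libraries. All of the latter lay below wildtype, at 90.1% (95% interval 84.3 to 96.3%), and the log2 change of -0.15 (SE 0.0456) had a limma adjusted p of 0.216. Lims2 overlaps Gpr17 on the opposite strand, and its own value was 221 to 246 in wildtype and 162 to 180 in the Zmiz1-KO-labelled libraries. The part of Lims2 reads in the Gpr17 value was not tested. Bcas1, a marker of early myelinating cells, was at 1121, 1396 and 1144 in wildtype and at 1030, 1005 and 1031 in the Zmiz1-KO-labelled libraries. The latter were again lower without overlap, with a log2 change of -0.25 (SE 0.0756, limma adjusted p = 0.216), and wildtype replicate 2 stood above the other wildtype libraries. Without that library the change of Bcas1 was -0.15, the smallest of the 6 fits that left out 1 library.

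Enpp6, a choline phosphodiesterase of newly formed oligodendrocytes, was at 227, 235 and 188 in wildtype and at 181, 209 and 182 in the Zmiz1-KO-labelled libraries, and the groups overlapped (log2 change -0.18, limma adjusted p = 0.663, from -0.28 without wildtype replicate 3 to -0.12 without wildtype replicate 2). Tcf7l2, a Wnt effector needed for differentiation that some neurons also express, ranged from 180.4 to 269 in wildtype and from 209 to 281 in the Zmiz1-KO-labelled libraries, with an interval from -0.34 to 0.36. Fyn, a kinase that acts in process outgrowth and is abundant in neurons, was at 7039 to 7551 and 6955 to 7132, with the narrowest interval of all the lineage genes, from -0.12 to 0.04.

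**Figure D2:**
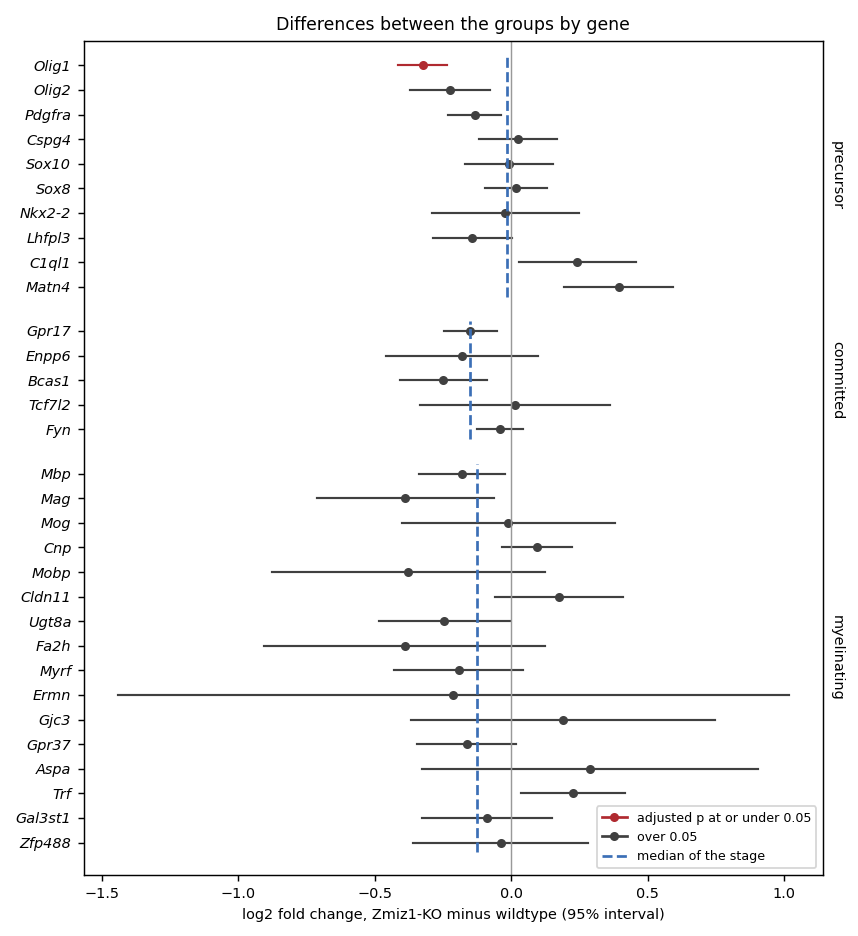
Log2 change of each tested lineage gene between the Zmiz1-KO-labelled libraries and wildtype, with its 95% interval, unadjusted for the number of genes, by stage. Olig1 (red) was the 1 gene past an adjusted p of 0.05, the dashed lines at -0.01, -0.15 and -0.13 are the medians of the stages, and the intervals widened in the myelinating genes.

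The genes of myelinating cells had a median log2 change of -0.13 over the 16 tested, with 11 estimates below 0 and 5 above. This median was -0.04 without replicate 3 labelled Zmiz1-KO and -0.07 with a pseudocount of 10. None passed the threshold. At an unadjusted p under 0.05 (limma) 3 were lower and 1 higher, against 5.84% and 5.13% of all tested genes. Among the structural myelin genes, Mbp was at 3339, 4125 and 3570 normalized counts in wildtype and at 3407, 3096 and 3200 in the Zmiz1-KO-labelled libraries. Replicate 1 of the latter lay above wildtype replicate 1, and the log2 change of -0.18 (SE 0.0715) had a limma adjusted p of 0.380. Without wildtype replicate 2, the highest library, the estimate of Mbp was -0.10. The ratio of Mbp to Pdgfra, a late gene against an early gene, was 0.773, 0.912 and 0.858 in wildtype and 0.882, 0.747 and 0.834 in the Zmiz1-KO-labelled libraries. These ratios were intermixed, with a difference of -0.05 on the log2 scale (exact permutation p = 0.6, adjusted 0.6).

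Mag, an adhesion protein at the inner face of the myelin sheath, was at 142, 196 and 188 in wildtype and at 127, 138 and 133 in the Zmiz1-KO-labelled libraries. The highest of the latter lay just under wildtype replicate 1, and the log2 change of -0.39 (SE 0.153) had a limma adjusted p of 0.350. Cnp, an enzyme of uncompacted myelin, was at 2457 to 2821 and 2743 to 3079, with an estimate above 0 of 0.09 (interval -0.03 to 0.22) that was 0.03 without wildtype replicate 1 and 0.04 without replicate 1 labelled Zmiz1-KO. Mog, on the outer face of the sheath, was at 80.4 to 112 and 84.6 to 97.2, with a wide interval from -0.40 to 0.38. Mobp, a basic protein of compact myelin, ran from 59.0 to 104 in wildtype, with the top value in replicate 2, and from 52.4 to 63.6 in the Zmiz1-KO-labelled libraries (log2 change -0.38, limma adjusted p = 0.60). Without wildtype replicate 2 the estimate of Mobp was -0.14. Cldn11, the tight junction protein of myelin, which the arachnoid also makes, was at 373 to 494 and 441 to 545, with an estimate of 0.17 (limma adjusted p = 0.603) that was 0.06 without wildtype replicate 2 and 0.11 without replicate 2 labelled Zmiz1-KO.

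Of the enzymes that make myelin lipids, Ugt8a, which forms galactosylceramide, was at 245, 257 and 272 in wildtype and at 207, 223 and 221 in the Zmiz1-KO-labelled libraries. These groups did not overlap, and the log2 change was -0.25 (SE 0.113, limma adjusted p = 0.438). Fa2h, the fatty acid hydroxylase of the same pathway, was at 59.8, 92.4 and 69.9 in wildtype and at 71.6, 55.1 and 42.7 in the Zmiz1-KO-labelled libraries. Replicate 1 of the latter lay above 2 of the wildtype libraries, and the estimate of -0.39 (SE 0.243) had a limma adjusted p of 0.595. The estimate of Fa2h was -0.21 without replicate 3 labelled Zmiz1-KO and -0.22 without wildtype replicate 2. Gal3st1, which sulfates the product of Ugt8a, was at 244 to 275 and 224 to 254, overlapping, with an estimate of -0.09 (limma adjusted p = 0.844) that was -0.04 without wildtype replicate 3 or without replicate 2 labelled Zmiz1-KO. Aspa, which releases acetate for lipid synthesis, varied by 31.0% and 32.5% among the replicates of the groups, with values from 30.7 to 78.6. The estimate of Aspa was 0.29 (limma adjusted p = 0.787), and it ran from 0.017 to 0.48 with 1 library left out.

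Myrf, the transcription factor that drives myelin genes, was at 252, 271 and 290.5 in wildtype and at 250.4, 226 and 235 in the Zmiz1-KO-labelled libraries. The groups were separated by a narrow gap, and the log2 change of -0.19 (interval -0.43 to 0.04) had a limma adjusted p of 0.564. Zfp488, a zinc finger factor of the lineage, was at 126 to 144 and 121 to 149. Trf, the iron carrier transferrin, was at 374, 414 and 406 in wildtype and at 472, 433 and 493 in the Zmiz1-KO-labelled libraries, higher without overlap (log2 change 0.23, SE 0.0901, limma adjusted p = 0.353). Its value is uncertain, because 56.0% of its 75-base stretches are shared with other genes, chiefly with Gm20425, which overlaps it on the same strand. Choroid plexus also makes transferrin, and the library labelled Zmiz1-KO that was low in Ttr, replicate 2, had the lowest Trf of its group, as wildtype replicate 1 did in wildtype. The part of choroid plexus in the Trf value was not tested.

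Gpr37, a receptor of maturing oligodendrocytes, was at 531 to 613 and 479.6 to 547, with an estimate of -0.16 (limma adjusted p = 0.514). Gjc3, a gap junction protein, ranged from 48.3 in wildtype replicate 1 to 111 in wildtype replicate 2, a wider span than the 83.6 to 96.7 of the Zmiz1-KO-labelled libraries. The estimate of Gjc3 was 0.19 (limma adjusted p = 0.858). Ermn, a cytoskeletal protein of mature oligodendrocytes, was at 18.2 to 25.5 in wildtype and at 35.8, 31.4 and 5.97 in the Zmiz1-KO-labelled libraries, so its direction rested on replicate 3, without which the estimate turned from -0.21 to 0.56. Opalin, a membrane protein of late oligodendrocytes, was not tested. It was listed at 0, 4.20 and 2.06 in wildtype and at 0 in all 3 Zmiz1-KO-labelled libraries, where a single read is worth about 2 normalized counts.

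**Figure D3:**
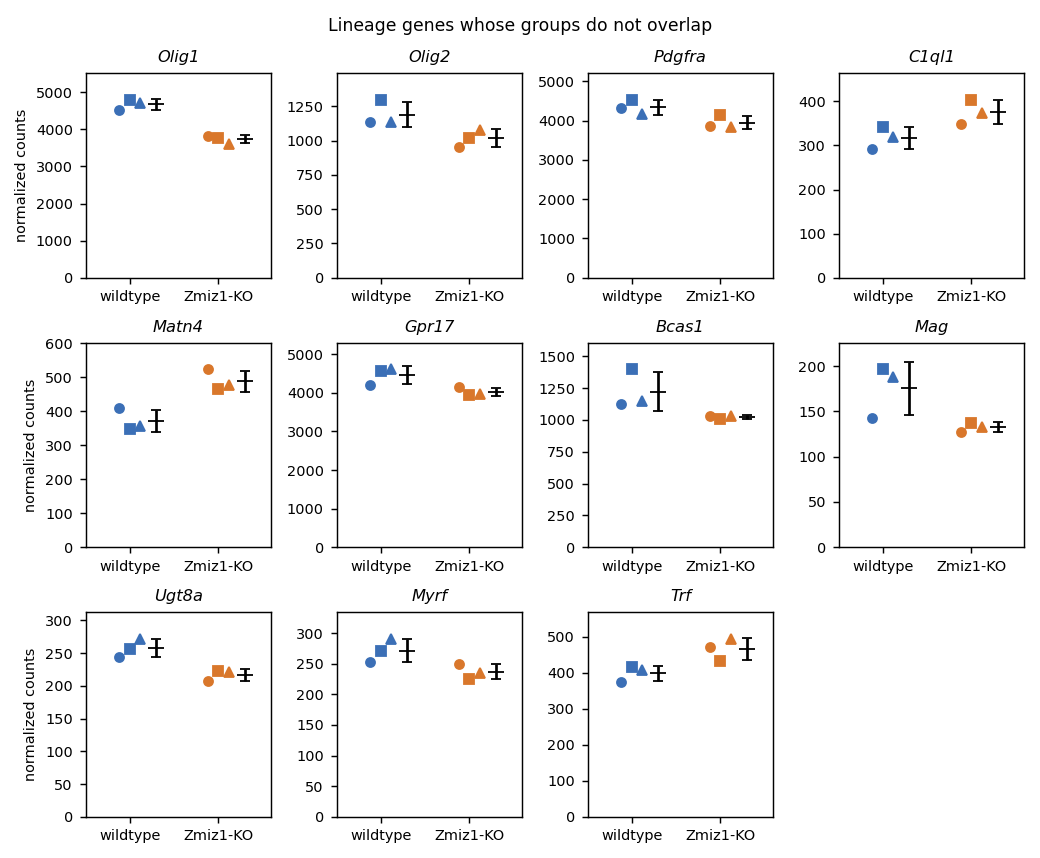
Normalized counts in each library of the 11 lineage genes whose groups did not overlap, with axes from 0 and the mean and SD of each group (n = 3) in black. The distance between the groups exceeded the spread within them most clearly in Olig1, at 4673 ± 143 and 3730 ± 105, and was small in Pdgfra and Myrf.

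The size of change that these data could show differed by stage. The 95% intervals of 24 of the 31 genes lay wholly within a 1.5-fold change in either direction, and those of 30, all but Ermn, within 2-fold. All 5 committed genes and 9 of the 10 precursor genes were among the 24, with 10 of the 16 myelinating genes. The median half-width of the interval was 0.15 on the log2 scale in precursor genes, 0.16 in committed genes and 0.28 in myelinating genes. Per kilobase of the longest coding transcript, wildtype means of precursor genes ran from 84.1 (Nkx2-2) to 2161 normalized counts (Olig1), those of committed genes from 43.6 (Enpp6) to 2029 (Fyn), and those of myelinating genes from 1.14 (Opalin) to 1137 (Cnp). Mbp stood at 767 on this scale, but its coding transcripts range from 354 to 4797 bases, so its place depends on the transcript taken. Gpr17 stood at 859, Pdgfra at 634 and Olig2 at 470.2, against 72.1 for Mag, 55.0 for Mog and 23.3 for Mobp.

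**Figure D4:**
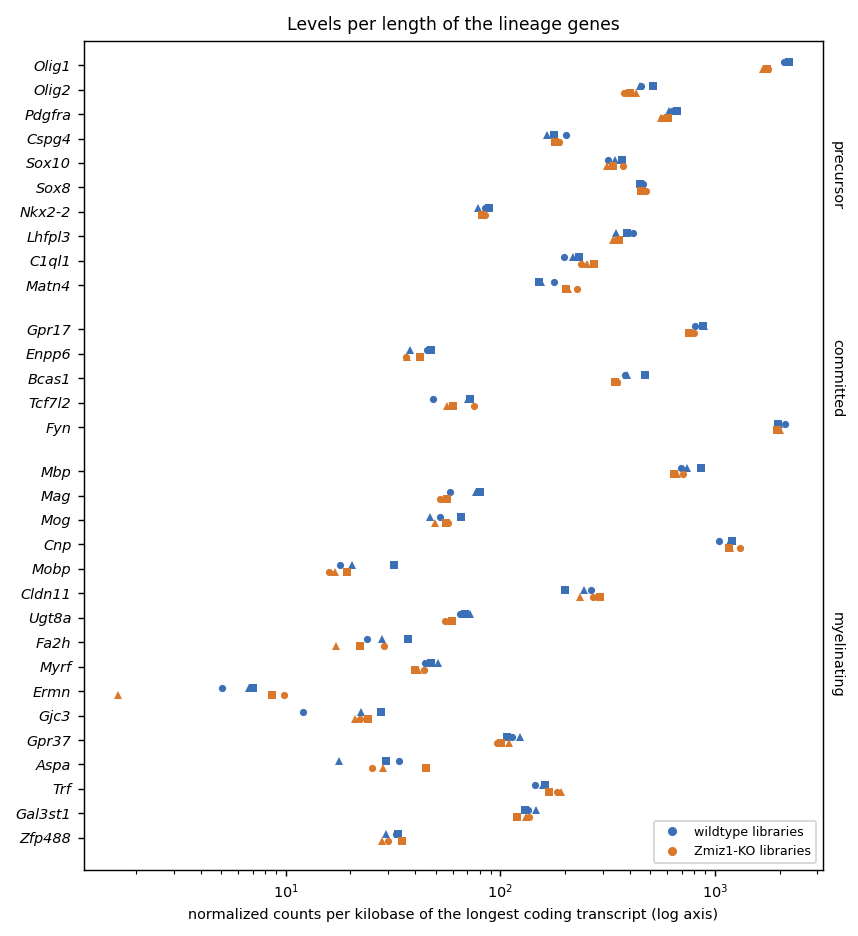
Normalized counts per kilobase of the longest coding transcript of each tested lineage gene in each library, on a log axis. Olig1 (wildtype mean 2161) and Fyn (2029) stood highest, and Mag (72.1), Mog (55.0) and Mobp (23.3) far lower.

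Replicates varied more in wildtype. The median coefficient of variation of the 31 tested genes was 7.84% in wildtype and 6.42% in the Zmiz1-KO-labelled libraries, beside 6.20% and 5.79% over all tested genes. It was 11.5% and 2.64% in committed genes and 12.5% and 7.05% in myelinating genes. Within wildtype, replicate 2 had the highest wildtype value in 11 of the 17 myelinating genes and in 20 of all 32, and replicate 1 the lowest in 11 of the 17 and in 17 of 32. The sum over the myelinating genes was 92.8% of the wildtype mean in replicate 1, 107% in replicate 2 and 101% in replicate 3, and 100.4%, 93.9% and 94.1% in the Zmiz1-KO-labelled libraries, so these groups overlapped. For precursor genes the sums were 97.0 to 103% against 89.4 to 92.3%, and for committed genes 99.4 to 101% against 92.3 to 94.4%, without overlap. These sums weigh the most abundant genes most, which are Olig1 and Pdgfra among the precursor genes and Fyn and Gpr17 among the committed genes. The median log2 ratio to the wildtype mean, which weighs genes equally, overlapped between the groups in both stages. For precursor genes it was -0.057 to 0.050 in wildtype and -0.080 to 0.032 in the Zmiz1-KO-labelled libraries. For committed genes it was -0.084 to 0.12 in wildtype and -0.17 to -0.063 in the Zmiz1-KO-labelled libraries.

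Markers of other cells moved with the groups or with single libraries. The 8 striatal neuron markers all had estimates above 0, none of them called, and their summed level was 78.0% of the wildtype mean in wildtype replicate 1, 110 to 112% in the other wildtype libraries and 121 to 133% in the Zmiz1-KO-labelled libraries. The 8 interneuron markers likewise all had estimates above 0, with sums of 89.4 to 111% and 116 to 125%. The 5 choroid plexus markers all had estimates below 0, none called, and their sum ranged from 5.79% in wildtype replicate 1 to 167% in wildtype replicate 2, and from 7.05 to 96.7% in the Zmiz1-KO-labelled libraries. This sum is mostly Ttr. Folr1 was likewise low, at 10.2 and 15.0, in the libraries low in Ttr, but in replicate 2 labelled Zmiz1-KO Clic6, at 106, and Kcnj13, at 67.0, were close to the 116 and 148 and the 61.5 and 79.7 of the other libraries of its group. Astrocyte markers, at 97.2 to 105% and 89.3 to 100.3%, neuron markers, at 96.0 to 104% and 95.7 to 98.9%, and microglia markers, at 95.8 to 103% and 95.2 to 98.2%, overlapped between the groups, and Aqp4 was the 1 gene called among these 3 lists, lower in the Zmiz1-KO-labelled libraries. The largest estimates of the marker lists were 0.50 for Drd2 (striatal), 0.34 for Slc32a1 (interneuron), 0.34 for Col1a1 (meningeal), -0.82 for Folr1 (choroid plexus), -0.32 for Abcc9 (pericyte), -0.29 for Aqp4 (astrocyte), -0.33 for P2ry12 (microglia), -0.09 for Rbfox3 (neuron), -0.12 for Pecam1 (endothelial), 0.46 for Hba-a2 (red blood cell) and 0.15 for Ccnb1 (cell cycle), none of them called but Aqp4. The part of these differences in the lineage values was not tested.

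Counts of calls over all genes depended on the setting. With the replicate block 1.06% of tested genes were called (2 lineage genes, Olig1 and Matn4), and 0.671% at an adjusted p of 0.1 (the same 2 genes). Among the 4 libraries low in Xist 0.986% were called, and 0.108% without robust estimation (Olig1 in both). The block pairs libraries by replicate number alone, and the labels give no pairing. Without the 2 libraries low in Ttr, a comparison added after the data were seen, 358 genes or 2.3% of those tested passed an adjusted p of 0.05. Among the lineage genes, 4 then did so, namely Olig1 (log2 change -0.36), Pdgfra (-0.17, limma adjusted p = 0.0401), Gpr17 (-0.18, limma adjusted p = 0.0207) and Matn4 (0.50, limma adjusted p = 0.00976). Each kept its direction from the comparison of all 6 libraries, and only 2 libraries per group entered. The female library labelled Zmiz1-KO was among those left out, while the female wildtype library stayed. Xist was at 57.3 and 25307 in the wildtype libraries left and at 12.9 and 19.1 in those labelled Zmiz1-KO. Sex was thus not balanced between the groups in this comparison, and its part in these calls was not tested. Among the 4 libraries low in Xist, the limma adjusted p of Olig1 was 0.00785.

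**Figure D5:**
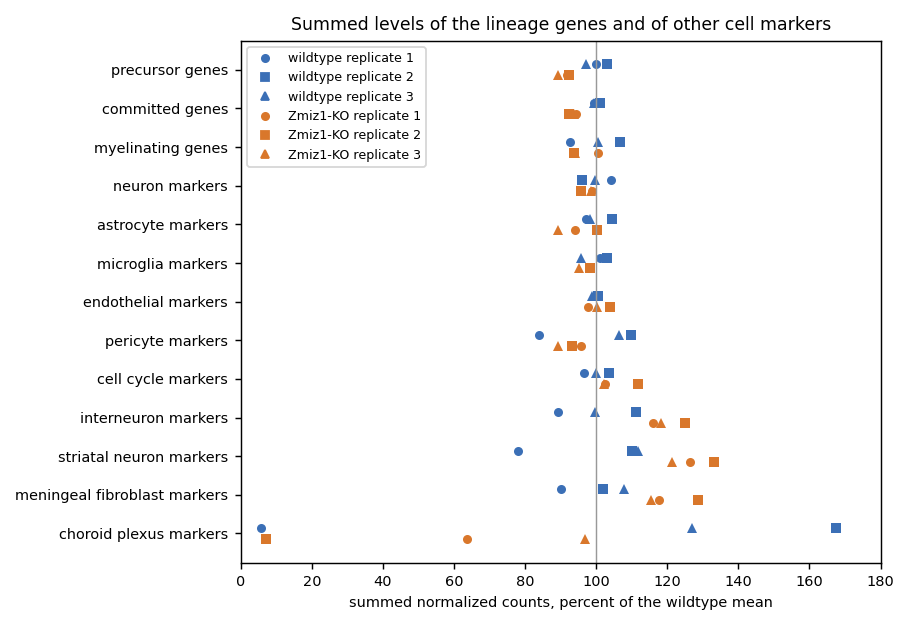
Summed normalized counts of the lineage genes by stage and of markers of other cells in each library, as a percentage of the wildtype mean. The precursor and committed sums of the Zmiz1-KO-labelled libraries lay below wildtype, the interneuron, striatal and meningeal sums above it, and the choroid plexus sums ranged from 5.79 to 167%. With genes weighed equally, the precursor and committed levels overlapped between the groups.

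Other genes of the lineage, not among the 32, held 1 called gene, where 0.411% of all tested genes were called. These lists were chosen with earlier results of these data known, so their calls and directions are not independent support. Of 16 further genes used by precursors, 1 was called, Ptprz1, a receptor phosphatase that astrocytes also express, at 18710 to 20102 normalized counts in wildtype and 14852 to 16592 in the Zmiz1-KO-labelled libraries (log2 change -0.32, limma adjusted p = 0.00203). Their median log2 change was -0.11, with 11 estimates below 0 and 5 above. At an unadjusted p under 0.05 (limma) 5 were lower and 0 higher, against 5.84% and 5.13% of all tested genes. Vcan, 1 of these, was at 3799 to 4237 normalized counts in wildtype. It was at 3413 to 3517 in the Zmiz1-KO-labelled libraries, without overlap (log2 change -0.20, limma adjusted p = 0.0763). Tmem100, the gene of this list with the largest estimate, was at -0.37 (limma adjusted p = 0.404). Of 8 further genes of committed cells none was called (1 lower at an unadjusted p under 0.05, limma), at a median of -0.04, and the largest estimate was that of Lims2, -0.44 (limma adjusted p = 0.176). Of 22 further myelin genes 21 were tested and none was called (1 lower and 3 higher at an unadjusted p under 0.05, limma). Their median was -0.03, with 13 estimates below 0. The largest estimate was that of Hapln2, a link protein of the nodes, at -0.65 (limma adjusted p = 0.783), with values of only 4.01 to 31.5.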

How the data were processed

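Total RNA of P7 cortices (n = 3 per genotype) was made into libraries with a kit that does not mark strand. In BaseSpace, the authors aligned reads (STAR, mm10) and scaled gene counts by DESeq2. The deposited signal, called normalized counts here, covers 24972 genes in 6 libraries. Versions and gene annotation are not given in the sources used here. Values are not whole, and low values lie near multiples of 1.83 to 2.11 without meeting them, so reads were not recovered and no count model was applied; the sum of a library divided by that step estimated its depth. With 3 libraries per group, p-values measure the spread between these libraries, which may be technical.

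Genes that reached 10 normalized counts in 3 or more libraries (15800) were compared by limma (version 3.58.1, R version 4.3.3) on log2(value + 1), with intensity trend, robust estimation and no covariate, two-sided, adjusted by Benjamini-Hochberg over all tested genes. The procedure was tested on simulated data. Intervals are 95% intervals of limma. The lineage genes, stages and lists were chosen with earlier results of these data known. All 32 were named. Values in every library are given for those called, without overlap between groups, or with the 2 largest changes of a stage. Of other lists, the called genes and the largest estimate were named. Snap25, Emx1, Ttr, Clic6, Kcnj13, Vcan, Pdgfa, Id2, Id4, Hes1, Hes5 and Shh were added after their values were seen. Coordinates, transcript lengths and shared stretches are from GENCODE M21 (GRCm38), promoters from RefSeq (GRCm38.p6). Alternatives were pseudocounts of 0.1 and 10, other filters, limma-voom, median-ratio, upper-quartile and trimmed-mean (TMM) scaling, no robustness, an adjusted p of 0.1, a replicate block, an Xist covariate, libraries low in Xist only, each library left out, and, added later, both libraries low in Ttr left out. The result of 1 further myelin gene is not reported here.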

Additional observations from a re-analysis of the deposited data

How the results depend on the processing

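Over all genes, the 65 calls became 17 without robustness, 168 with the replicate block, 153 in the libraries low in Xist, 106 at an adjusted p of 0.1, 358 without both libraries low in Ttr, and 12 (without replicate 3 labelled Zmiz1-KO) to 152 (without replicate 2 labelled Zmiz1-KO) with 1 library left out. They were 30 without wildtype replicate 1 and 17 without replicate 1 labelled Zmiz1-KO. The 1 lineage gene called became 2 with the replicate block (Matn4 added, limma adjusted p = 0.0451) and at an adjusted p of 0.1, and 4 without both libraries low in Ttr, and was 1 in the other settings. The 1 further lineage gene called, Ptprz1, became 2 with the block and at an adjusted p of 0.1, 3 in the libraries low in Xist, 3 without both libraries low in Ttr, and 1 to 2 with 1 library left out, the larger without replicate 2 labelled Zmiz1-KO. The medians of the stages moved by less than the spread between replicates in all settings, although with 1 library left out that of precursor genes ran from -0.056 to 0.010, that of committed genes from -0.17 to -0.12 and that of myelinating genes from -0.16 (without wildtype replicate 1) to -0.04 (without replicate 3 labelled Zmiz1-KO), and with a pseudocount of 10 the last was -0.07. Same-numbered libraries did not deviate together (correlations of deviations -0.0051, -0.11 and -0.0063). Deviations within a group are tied to each other by its mean, so these correlations cannot exclude a shared litter or batch. Litters are not given. Besides Matn4, and Vcan among the further genes (limma adjusted p = 0.0241), the block changed no lineage call.

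No called lineage gene changed direction, and 20 of 588 single-gene estimates did, in 11 genes, none of them called in any setting. With upper-quartile scaling Sox10 was at 0.0022. In the libraries low in Xist, Cspg4 was at -0.024, Aspa at -0.23 and Gal3st1 at 0.012. Without both libraries low in Ttr, Tcf7l2 was at -0.13 and Gjc3 at -0.21. With 1 library left out, Cspg4 ran from -0.046 to 0.11, Sox10 from -0.073 to 0.049, Sox8 from -0.0049 to 0.030, Nkx2-2 from -0.067 to 0.017, Tcf7l2 from -0.17 to 0.11, Mog from -0.11 to 0.12, Ermn from -0.64 to 0.56, Gjc3 from -0.15 to 0.44 and Zfp488 from -0.12 to 0.029. The cause of these shifts was not tested. The count test on whole reads was not run, since whole reads were not recovered. The lowest wildtype means of the lineage genes were those of Opalin (2.09), Ermn (22.7), Aspa (46.9), Fa2h (74.0) and Mobp (76.7). Counting error was not estimated.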

Other observations

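Among 28 genes of signals and inhibitors that act on the lineage, none passed an adjusted p of 0.05 (limma). At an unadjusted p under 0.05 there were 1 higher and 3 lower in the Zmiz1-KO-labelled libraries, against 5.13% and 5.84% of all tested genes. Estimates lay below 0 in 14 and above 0 in 14, and the median log2 change was 0.0010. Pdgfa, the ligand of Pdgfra, was at 1492 to 1525 normalized counts in wildtype and 1450 to 1535 in the Zmiz1-KO-labelled libraries (log2 change -0.02, limma adjusted p = 0.947). The differentiation inhibitors Id2, Id4 and Hes5 had estimates of -0.02, 0.0028 and 0.0061. Hes1, of the same family as Hes5, was at 206 to 226 in wildtype and 235 to 274 in the Zmiz1-KO-labelled libraries. It was higher without overlap, with a log2 change of 0.22 that did not pass (limma adjusted p = 0.508). Erbb3, a neuregulin receptor of the lineage, had the largest estimate, at 66.3, 69.5 and 63.8 normalized counts in wildtype and 47.6, 25.6 and 34.4 in the Zmiz1-KO-labelled libraries. All 3 of the latter lay below wildtype, with a log2 change of -0.92 (SE 0.26) that had a limma adjusted p of 0.178. Shh, a ligand that induces precursors, was at 56.7 to 61.1 and 30 to 61.5, with an estimate of -0.44 (limma adjusted p = 0.581).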
